A study of Rattus norvegicus with 12 samples.

Results

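Potassium channel genes were taken as all probe sets of the rat array whose single annotated gene symbol starts with Kcn and a further letter, with Kcnj8 kept out. This choice used no measured value. It gave 125 probe sets for 74 genes, out of 14217 genes that had a probe set with 1 symbol, and each gene is described by the probe set that was brightest on average. All 74 genes matched the current rat annotation by gene ID.

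RNA was measured on 12 Affymetrix arrays from Wistar rats, 3 arrays in each of 4 groups that are named here by the sample titles: aorta of newborns (neonatal aorta), aorta of adults (adult aorta) and, likewise, neonatal valve and adult valve. Aorta means its proximal part. Each valve sample held the semilunar valves of both the aorta and the pulmonary artery. Newborn tissue was taken in the first 24 h of life, and the adults are labelled male, with no age in weeks given. No animal carried an engineered allele or was treated, and the labels do not say whether the 3 arrays of a group came from separate animals or pools, so the p-values measure the spread between these arrays only.

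Potassium channels let potassium leave the cell and so hold the membrane potential negative, which limits calcium entry and the tone of arterial smooth muscle. The voltage-gated channels (Kcna, Kcnb, Kcnc, Kcnd, Kcnh and Kcnq) open on depolarization, and their behaviour is set by subunits that cannot form channels alone (Kcng, Kcns, Kcnv) or that attach to the pore (Kcnab, Kcne, Kcnip). Calcium opens the large-conductance channel of Kcnma1 with its Kcnmb subunits and the small-conductance Kcnn channels, inward rectifiers (Kcnj) pass potassium near the resting potential, and tandem pore channels (Kcnk) carry the background leak. In the heart many of the same families repolarize the action potential.

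Several arrays stood apart or went against a label. For the 3 arrays titled adult aorta the description and tissue entries read neonatal valve, and for the 3 titled neonatal valve they read adult aorta. Igf2, a growth factor of the fetus and newborn, had signals of 6189 to 20768 on the arrays titled neonatal and of 184 to 879 on those titled adult. Xist, expressed from the silenced X of females, read 10997 to 18362 on the 6 valve arrays, although the adult valves are labelled male, and 5.08 to 297 on the 6 aorta arrays. The Y-linked Eif2s3y read 1379 to 2557 on the aorta arrays and 1.39 to 134 on the valve arrays, so sex and tissue cannot be told apart in the comparisons of valve with aorta. Summed signals of 8 smooth muscle markers ran from 27491 to 41450 in neonatal aorta, 30650 to 126115 in adult aorta, 10777 to 15620 in neonatal valve and 1775 to 45440 in adult valve. The 7 cardiac muscle markers on the array summed to 32029 to 56395, 443 to 1499, 65505 to 93852 and 3874 to 86159 in the same order of groups, with adult valve 2 at the top of its group. Adult aorta 1 had a skeletal muscle marker sum of 153559 against 12606 and 18025 on the other adult aorta arrays, and a squamous epithelium sum of 136845. Neonatal aorta 2 had a squamous sum of 72426, against 443 and 6116 in its group. Adipocyte sums were 28760 to 48645 in neonatal aorta, 6191 to 77515 in adult aorta, 3005 to 5288 in neonatal valve and 3112 to 8082 in adult valve, and their part in the tissue differences was not tested. Neonatal valve 3 had a thymocyte sum of 33943. Neonatal aorta 2 and 3 lacked the added control RNAs, whose probe sets read 2.52 to 54.6 there, so a signal in that range cannot be told from absent RNA. The beta-actin 3' to 5' signal ratio, a sign of RNA breakdown, had a geometric mean of 1.66 in aorta and 9.92 in valve. Its part in the valve and aorta differences was not tested.

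A probe set was tested where its signal exceeded 172, the median of all values, on at least 3 of the 12 arrays. The brightest probe set of 26 of the 74 potassium channel genes passed. Of the other 48 genes, 32 exceeded that median on no array and 16 on 1 or 2, and their signals ran from 0.809 to 408 with a median of 35.9. Kcne4, Kcnk6, Kcnma1 and Kcns3 exceeded it on all 12 arrays. The tested genes were 3 of 6 Kcna, 1 of 3 Kcnab, 2 of 3 Kcnd, 2 of 4 Kcne, 1 of 2 Kcng, 2 of 8 Kcnh, 2 of 4 Kcnip, 4 of 14 Kcnj, 3 of 11 Kcnk, the single Kcnma, 2 of 2 Kcnmb, 2 of 3 Kcnq and 1 of 3 Kcns. No gene of Kcnb (1), Kcnc (3), Kcnn (3), Kcnt (1) or Kcnv (2) passed. Kcna6 and Kcne3 passed through the neonatal aorta arrays alone, and Kcnip2 through the valve arrays alone, with 3 in each valve group. Kcnj3 passed through the aorta arrays of both ages alone, and Kcnd3 and Kcnk2 through the valve arrays of both ages alone. Kcna2 exceeded the median on 3 adult valve arrays, but on only 1 array in adult aorta and 1 in neonatal valve. It therefore passed through adult valve. Calls of these genes that rest on those groups were favoured by the filter.

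**Figure D1:**
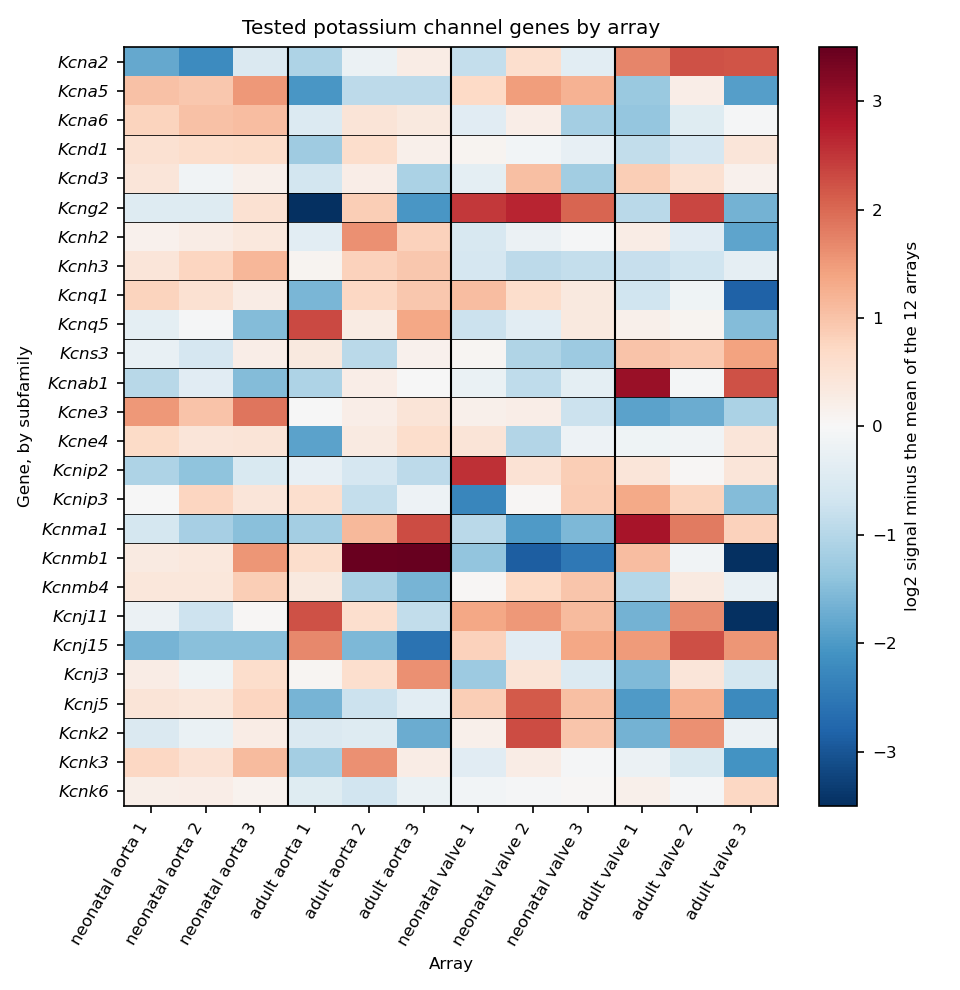
Log2 signal of the 26 tested potassium channel genes (rows) on each of the 12 arrays (columns, in 4 groups of 3). Colour shows each gene's signal relative to its own mean over the arrays, so rows are not comparable in level, and values past the ends of the scale share the end colours. Kcna5 is high on the columns of both newborn groups, Kcne3 on the neonatal aorta columns, and Kcna2 and Kcns3 on the adult valve columns. Kcnma1 is high on the adult valve columns and on adult aorta 2 and 3.

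Between newborn and adult aorta the transcript of 1 potassium channel gene changed. Kcna5, which encodes a delayed rectifier of arterial smooth muscle and atrial muscle, fell 5.47-fold. This is 1 of 26 tested genes, against 7.31% of all 18552 probe sets tested (1.94% higher and 5.37% lower). The arrays of the 2 ages did not overlap for 7 genes, 1 higher and 6 lower in the adult, beside 30.9% of all probe sets (10.7% and 20.2%), and 7 genes had an unadjusted p under 0.05. The median log2 difference was -0.52 over the 26 genes and -0.11 over all 10391 tested genes.

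Between newborn and adult valve 5 of the 26 changed, where 9.21% of all probe sets did (4% higher and 5.21% lower). Kcnma1, the pore of the large-conductance calcium-activated channel, rose 10.03-fold, Kcna2 rose 4.75-fold and Kcns3 rose 3.64-fold. Kcna5 fell 4.39-fold and Kcne3 fell 2.75-fold. Arrays of the 2 ages did not overlap for 9 genes, 5 higher and 4 lower, beside 33.4% of all probe sets (14.9% and 18.5%), and the median log2 difference was -0.16 against -0.05 over all tested genes. Whether an age difference itself differed between valve and aorta was tested for each gene: 0 of 26 passed limma's test at an adjusted p of 0.05, 3 had an unadjusted p under 0.05, and 0.0593% of all probe sets passed (0.0485% higher and 0.0108% lower).

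In newborns 4 of the 26 differed between valve and aorta, against 32.6% of all probe sets (13.3% higher and 19.3% lower in valve). Kcnip2 was 4.99-fold higher in valve by its brightest probe set, whereas its untested probe sets were lower there. Kcna6, Kcne3 and Kcnh3 were 2.68-fold, 3.00-fold and 2.93-fold lower. Kcna6 and Kcne3 entered the test through neonatal aorta alone, the group where they are high. Kcnip2 entered through the valve groups alone, and it is high in neonatal valve. The calls of all these genes were favoured by the filter, so the count is a description. For 13 genes the arrays of the tissues did not overlap, 5 higher and 8 lower in valve, beside 59.7% of all probe sets (26.2% and 33.5%). The median log2 difference was -0.28, against -0.06 over all tested genes. After each array was centred on its median, 3 were called higher and 2 lower in valve, and after quantile normalization 2 and 2. With the presence of the added control RNAs as a block, neonatal aorta 2 and 3 are set apart and neonatal aorta 1 alone gives the group mean. In that fit Kcnip2 was at 2.39 in newborn tissues and Kcna5 at -2.32 in aorta by age. With 1 array left in that group, the calls of this fit are not counted here. In adults 9 of the 26 differed, against 37.1% of all probe sets (17.3% higher and 19.9% lower in valve). By the brightest probe sets, Kcna2, Kcnab1, Kcnj15, Kcnk6 and Kcns3 were higher in valve, and Kcne3, Kcnh3, Kcnmb1 and Kcnq5 were higher in aorta. For Kcnk6 a second tested probe set was called lower in valve, and for Kcnab1 an untested probe set was lower there without overlap. Centring gave 5 higher and 2 lower there, and quantile normalization 7 and 3. The share of all probe sets called under either scaling is not given here, so these counts are not read as gains or losses. For 7 genes the adult tissues did not overlap, 4 higher and 3 lower in valve, beside 44.3% of all probe sets (21.1% and 23.2%), and the median log2 difference was 0.31, against -0.01. Counted by gene, 15.4% of the tested members were called in newborns, against 27.2% of all tested genes. In adults the shares were 34.6% and 33%. The newborn share of called members was thus lower and the adult share close. In these bulk samples fewer cells of a type and less RNA per cell cannot be told apart.

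**Figure D2:**
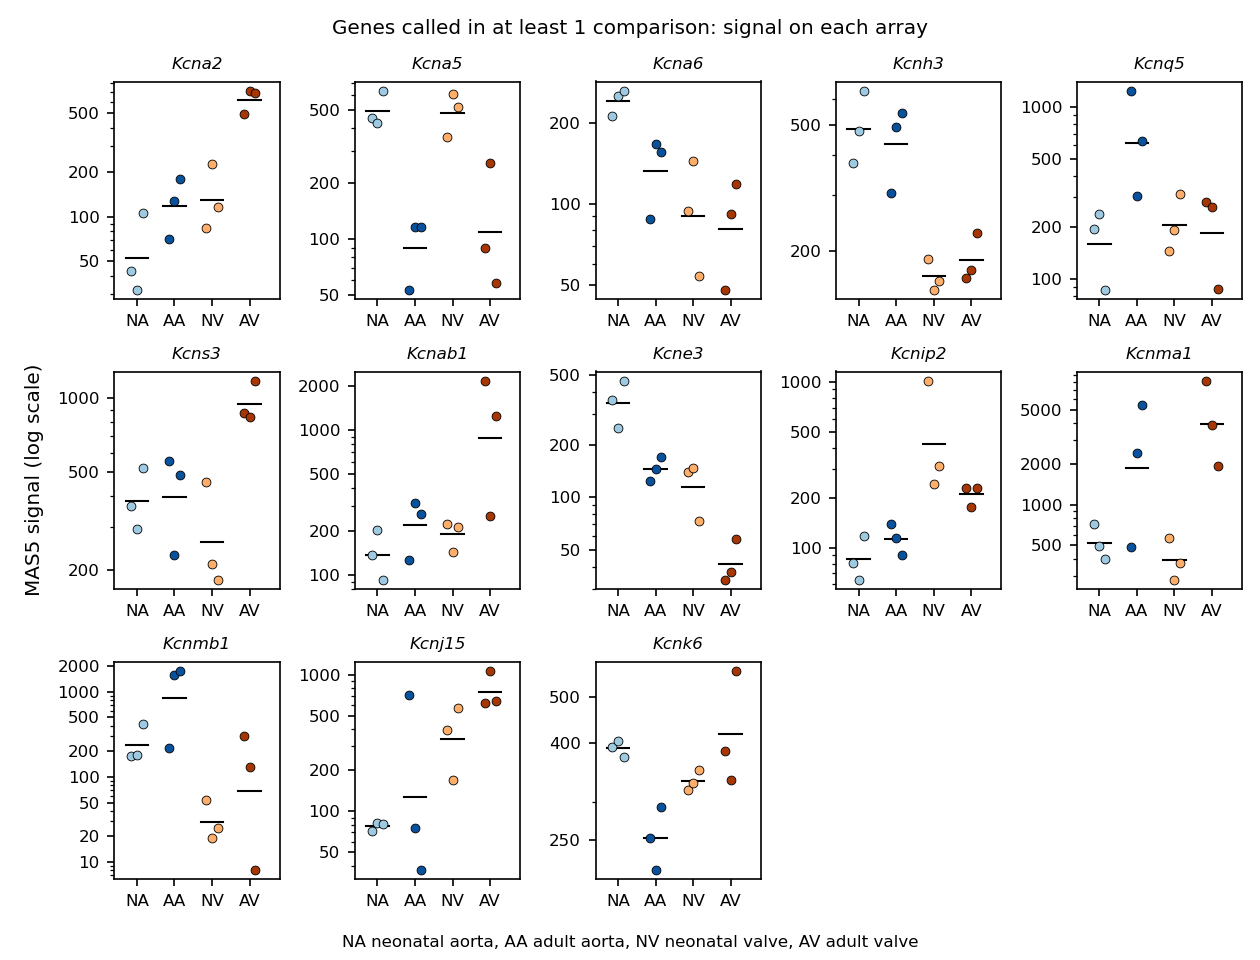
MAS5 signal (log scale) on each array for the 13 genes called in at least 1 comparison, with neonatal aorta (NA), adult aorta (AA), neonatal valve (NV) and adult valve (AV) along the horizontal axis. Points are arrays and bars are geometric means of 3. Kcna5 lies lower in both adult groups, and Kcna2 and Kcns3 are highest on the 3 adult valve arrays.

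The Kcna genes encode the pore of Shaker-type channels, delayed rectifiers that oppose depolarization in arterial muscle and nerve. Kcna5 had signals of 451, 422 and 628 in neonatal aorta and of 53.5, 116 and 117 in adult aorta. It read 356, 611 and 516 in neonatal valve and 89.4, 258 and 57.7 in adult valve. In each tissue every newborn array was above every adult array. The log2 difference of adult minus neonatal was -2.45 ± 0.51 (SE; limma, adjusted p = 0.0168) in aorta and -2.13 ± 0.51 (adjusted p = 0.0275) in valve. The valve and aorta age differences differed by 0.32 ± 0.72 in log2, which did not pass limma's test (adjusted p = 0.90). The aorta call was lost on leaving out any of the 3 neonatal aorta arrays (-2.56 to -2.28). The valve call was lost on leaving out any of the 3 neonatal valve arrays, without adult valve 1 and without adult valve 3 (-2.35 to -1.67). The cardiac marker sum was lower on every adult aorta array than on every neonatal aorta array. In valve it was 65505 to 93852 in newborns and 11690, 86159 and 3874 in adults. Within each valve group the arrays came in the same order for this sum and for Kcna5. The part of cardiac muscle content in the fall of Kcna5 was not tested in either tissue. The RefSeq promoter of Kcna5 (GRCr8, chr4:161043760-161044059, minus strand, from 250 bases before to 50 after the start) is given since Kcna5 was called lower in the adults of both tissues:
Kcna5: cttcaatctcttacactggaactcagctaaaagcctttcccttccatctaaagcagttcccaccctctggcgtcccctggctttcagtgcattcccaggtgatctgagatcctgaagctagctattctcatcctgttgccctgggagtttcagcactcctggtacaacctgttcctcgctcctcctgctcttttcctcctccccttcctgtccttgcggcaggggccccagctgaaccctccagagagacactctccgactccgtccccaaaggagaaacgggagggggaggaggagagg
It held no GGGCGG on either strand and 2 matches of CANNTG, a motif that 72.1% of all 33469 promoters of this length hold.

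Kcna2, a second delayed rectifier subunit, read 495, 704 and 687 in adult valve. Its signals were 43.2, 32.3 and 106 in neonatal aorta, 70.6, 129 and 179 in adult aorta and 84.2, 227 and 117 in neonatal valve. The adult valve arrays were above all 9 others. The log2 difference was 2.25 ± 0.52 against neonatal valve (adjusted p = 0.0243) and 2.40 ± 0.52 against adult aorta (adjusted p = 0.0048). Kcna2 entered the test through adult valve, the group where it is high, so both calls were favoured by the filter. The second call held in each alternative that was run, and the first was lost on leaving out either of neonatal valve 1 and 3 or any adult valve array (1.93 to 2.41). An untested probe set of Kcna2 showed no rise, with geometric means of 77.5 in adult aorta, 47.5 in neonatal valve and 47.0 in adult valve. Kcna6 read 213, 253 and 263 in neonatal aorta against 94.3, 144 and 54.0 in neonatal valve, without overlap, and was 1.42 ± 0.46 higher in log2 in neonatal aorta (adjusted p = 0.0343). That call was lost after quantile normalization and after centring, and without any of the neonatal aorta arrays or neonatal valve 1 or 3. Of the untested members Kcna4 read 272, 121 and 338 in neonatal valve and 3.04 to 78.1 on the other 9 arrays.

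Kcnd and Kcnh genes encode transient outward and ether-a-go-go channels. Kcnd1 (63.6 to 234) and Kcnd3 (52.2 to 252) were called in no comparison, and the difference farthest from 0 was 1.02 ± 0.54 for Kcnd3 in adult valve against adult aorta (adjusted p = 0.16). Kcnh3, best known from the forebrain, read 378, 477 and 636 in neonatal aorta, 304, 493 and 545 in adult aorta, 189, 151 and 160 in neonatal valve and 164, 174 and 227 in adult valve. Every aorta array was above every valve array. The log2 difference of valve minus aorta was -1.55 ± 0.28 in newborns (adjusted p = 0.0023) and -1.22 ± 0.28 in adults (adjusted p = 0.0070), and the adult call held in each alternative that was run. Kcnh2, which carries the rapid delayed rectifier current of the heart, read 52.3 to 572 over the 12 arrays. Its log2 differences did not pass, that of adult valve minus adult aorta being -1.35 ± 0.55 (adjusted p = 0.075). That difference was -1.88 and passed without adult aorta 1 (adjusted p = 0.0161), and was -0.76 without adult valve 3 (adjusted p = 0.26).

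Kcnq genes encode slow delayed rectifiers, of the heart for Kcnq1 and of nerve and arterial muscle for Kcnq5. Kcnq5 read 1234, 305 and 637 in adult aorta, 196, 240 and 87.2 in neonatal aorta, 147, 193 and 314 in neonatal valve and 282, 264 and 87.7 in adult valve. Adult aorta lay above neonatal aorta and adult valve without overlap. The log2 difference of adult valve minus adult aorta was -1.73 ± 0.61 (adjusted p = 0.0427). It was lost in 13 of the alternatives, with -0.78 with array weights, -1.24 without adult aorta 1 and -1.19 without adult valve 3. Adult minus neonatal aorta, at 1.96 ± 0.61, did not pass (adjusted p = 0.075), but did without adult valve 3 (adjusted p = 0.0462). An untested probe set of Kcnq5 had a higher geometric mean in adult valve than in adult aorta (91.3 against 61.4), and another a lower (22.6 against 36.8). Kcnq1 read 486, 350 and 293 in neonatal valve and 141, 205 and 32.1 in adult valve. Those arrays did not overlap, and the difference of -1.92 ± 0.73 did not pass (adjusted p = 0.12) except without adult aorta 1 (adjusted p = 0.0390). It was -1.11 without adult valve 3 (adjusted p = 0.33), whose reading lies in the range of absent RNA. In adult tissue, valve minus aorta passed without adult aorta 1 (-2.07, adjusted p = 0.0235).

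The silent subunits Kcng2 and Kcns3 form no channel alone and modify Kcnb channels, whose 1 member on the array was not tested. Kcns3 read 874, 838 and 1172 in adult valve, 458, 213 and 183 in neonatal valve, 555, 231 and 489 in adult aorta and 366, 294 and 519 in neonatal aorta. Again the adult valve arrays were above all others. The log2 difference was 1.86 ± 0.41 against neonatal valve (adjusted p = 0.0199) and 1.26 ± 0.41 against adult aorta (adjusted p = 0.0325). The first call was lost without neonatal valve 2, neonatal valve 3 or adult valve 3 (1.61 to 1.71), and the second without adult aorta 2 or any adult valve array (0.87 to 1.35). Kcng2, known from the heart, read 1068, 1227 and 787 in neonatal valve, 140, 140 and 278 in neonatal aorta and 100, 983 and 61.2 in adult valve. In adult aorta it read 4.86, 348 and 47.1, the first and last in the range of absent RNA. Neonatal valve lay above neonatal aorta without overlap, and the difference of 2.52 ± 1.33 did not pass (adjusted p = 0.17) except with array weights (2.67).

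Auxiliary subunits attach to a pore and change its gating. Kcne3, a small membrane protein that holds Kcnq1 open in epithelium, read 358, 248 and 458 in neonatal aorta, 124, 145 and 169 in adult aorta, 140, 147 and 73.5 in neonatal valve and 33.9, 37.4 and 57.4 in adult valve. Neonatal aorta was above all 9 other arrays and adult valve below all 9, of which 2 of 3 readings lay in the range of absent RNA. The log2 difference was -1.46 ± 0.38 between adult and neonatal valve (adjusted p = 0.0388), -1.58 ± 0.38 between neonatal valve and aorta (adjusted p = 0.0094) and -1.79 ± 0.38 between adult valve and aorta (adjusted p = 0.0044). The last call held in each alternative that was run, whereas the first was lost in 13 of them, 7 of which left out 1 array (neonatal aorta 1, 2 or 3, neonatal valve 1 or 2, adult valve 1 or 2; -1.46 to -1.28). In aorta the age difference of -1.25 ± 0.38 did not pass (adjusted p = 0.074), but did after quantile normalization (-1.34), with log2 of the signal plus 32 (-1.09) and with array weights (-1.13). An untested probe set of Kcne3 had geometric means of 68.4 in neonatal aorta, 114 in adult aorta, 64.4 in neonatal valve and 67.7 in adult valve. Kcne4, an inhibitory subunit present in arterial muscle, read 190 to 1109 and was called in no comparison.

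Kcnab1, a cytoplasmic subunit of Kcna channels, read 2164, 255 and 1256 in adult valve and 92.9 to 314 on the other 9 arrays. Adult valve 2 lay within the range of the other groups. The difference from adult aorta was 2.01 ± 0.67 (adjusted p = 0.0346) and was lost without adult aorta 1 or 3 or adult valve 1 or 3 (1.37 to 2.15), and with array weights (1.13). Without adult valve 2 the difference from neonatal valve, 2.21 ± 0.67 over all arrays (adjusted p = 0.061), was 3.11 and passed (adjusted p = 0.0062), as it did at 2.21 without adult aorta 1 (adjusted p = 0.0384). An untested probe set of Kcnab1 read lower in adult valve (77.2, 92.3 and 85.0) than in adult aorta (113, 314 and 151), without overlap. The direction between adult tissues is therefore given for the brightest probe set only. Kcnip2, a calcium-binding partner of Kcnd channels in the heart, read 1007, 241 and 311 in neonatal valve and 80.5, 64.2 and 118 in neonatal aorta, without overlap. It was 2.32 ± 0.48 higher in log2 in neonatal valve (adjusted p = 0.0041). That call was favoured by the filter, which Kcnip2 passed through the valve arrays alone. Adult valve, at 228, 175 and 229, lay below neonatal valve without overlap, by -1.01 ± 0.48, which did not pass (adjusted p = 0.20). The cardiac marker sum was likewise higher on every neonatal valve array than on every neonatal aorta array, and its part was not tested. Both untested probe sets of Kcnip2 were lower in neonatal valve than in neonatal aorta without overlap. Their geometric means were 16.2 against 68.5 and 10.5 against 66.2. The direction between newborn tissues is therefore given for the brightest probe set only. Kcnip3 read 23.6 to 288 and was called nowhere.

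Kcnma1 forms the calcium-activated channel of large conductance, and Kcnmb1 is the subunit that raises its calcium sensitivity in smooth muscle. Their promoters from RefSeq (GRCr8, plus strand, the same window) are shown because the arrays came in the same order for the pair within each adult group. Capitals mark GGGCGG on either strand, the core letters bound by Sp-type factors. Kcnma1 lies at chr15:351675-351974 and Kcnmb1 at chr10:19061849-19062148:
Kcnma1: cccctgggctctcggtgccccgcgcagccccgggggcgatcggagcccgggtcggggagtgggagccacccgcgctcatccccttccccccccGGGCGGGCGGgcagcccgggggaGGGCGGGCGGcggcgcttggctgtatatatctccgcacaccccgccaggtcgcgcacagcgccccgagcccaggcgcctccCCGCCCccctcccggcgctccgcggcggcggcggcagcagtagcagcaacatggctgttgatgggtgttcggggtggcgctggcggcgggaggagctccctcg
Kcnmb1: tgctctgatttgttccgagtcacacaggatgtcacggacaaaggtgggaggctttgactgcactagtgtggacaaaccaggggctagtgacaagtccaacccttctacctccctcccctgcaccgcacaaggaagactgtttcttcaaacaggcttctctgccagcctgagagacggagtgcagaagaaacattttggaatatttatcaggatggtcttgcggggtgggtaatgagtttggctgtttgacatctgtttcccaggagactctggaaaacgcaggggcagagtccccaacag
The Kcnma1 window held 5 matches of GGGCGG, some overlapping each other, and the Kcnmb1 window held 0. Of all promoters of this length 33.1% hold that motif. TATAAA (14.2% of all promoters) and the CArG box (1.64%), the motif of serum response factor, were found in neither window nor in that of Kcna5.

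Kcnma1 signals were 717, 492 and 398 in neonatal aorta, 487, 2412 and 5384 in adult aorta, 572, 281 and 369 in neonatal valve and 8062, 3846 and 1930 in adult valve. Adult valve lay above neonatal valve without overlap, while adult aorta 1 lay among the newborn arrays. The log2 difference was 3.33 ± 0.76 in valve (adjusted p = 0.0223) and 1.83 ± 0.76 in aorta, which did not pass (adjusted p = 0.17). The aorta difference was 2.79 ± 0.56 without adult aorta 1 and then passed (adjusted p = 0.0101). The valve call was lost without any neonatal valve array or without adult valve 1 (2.81 to 3.60). Kcnmb1 signals were 176, 181 and 416 in neonatal aorta, 216, 1556 and 1726 in adult aorta, 53.8, 19.3 and 24.9 in neonatal valve and 299, 130 and 8.19 in adult valve. All neonatal valve readings and that of adult valve 3 lay in the range of absent RNA, so the size of these differences is not exact. Adult valve was lower than adult aorta by -3.61 ± 1.18 in log2 (adjusted p = 0.0330), although adult valve 1 lay above adult aorta 1. This call was lost without adult aorta 2, adult aorta 3 or adult valve 3 (-3.16 to -2.08), and after centring (-3.22). In newborns the tissues did not overlap, and the difference of -3.00 ± 1.18 did not pass (adjusted p = 0.073) except without adult aorta 1 or adult valve 3 (adjusted p = 0.0428 and 0.0134) and with array weights (-2.79, adjusted p = 0.0043).

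Within each of the 4 groups the 3 arrays came in the same order for Kcnmb1 and for the summed smooth muscle markers. In neonatal valve all Kcnmb1 readings lay in the range of absent RNA, so their order there is not read. For Kcnma1 this held in both adult groups and in neonatal valve, and in neonatal aorta the order was the reverse. In adult aorta the marker sums were 30650, 94101 and 126115, and in adult valve 45440, 27584 and 1775. The part of smooth muscle content in the Kcnma1 and Kcnmb1 differences was not tested. Kcnmb4, the subunit best known from neurons, read 337, 340 and 468 in neonatal aorta and 325, 117 and 83.1 in adult aorta. The difference of -1.36 ± 0.49 did not pass (adjusted p = 0.12), but it passed without adult aorta 1 (-1.93, adjusted p = 0.0128) and with array weights (-1.65, adjusted p = 0.0060).

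**Figure D3:**
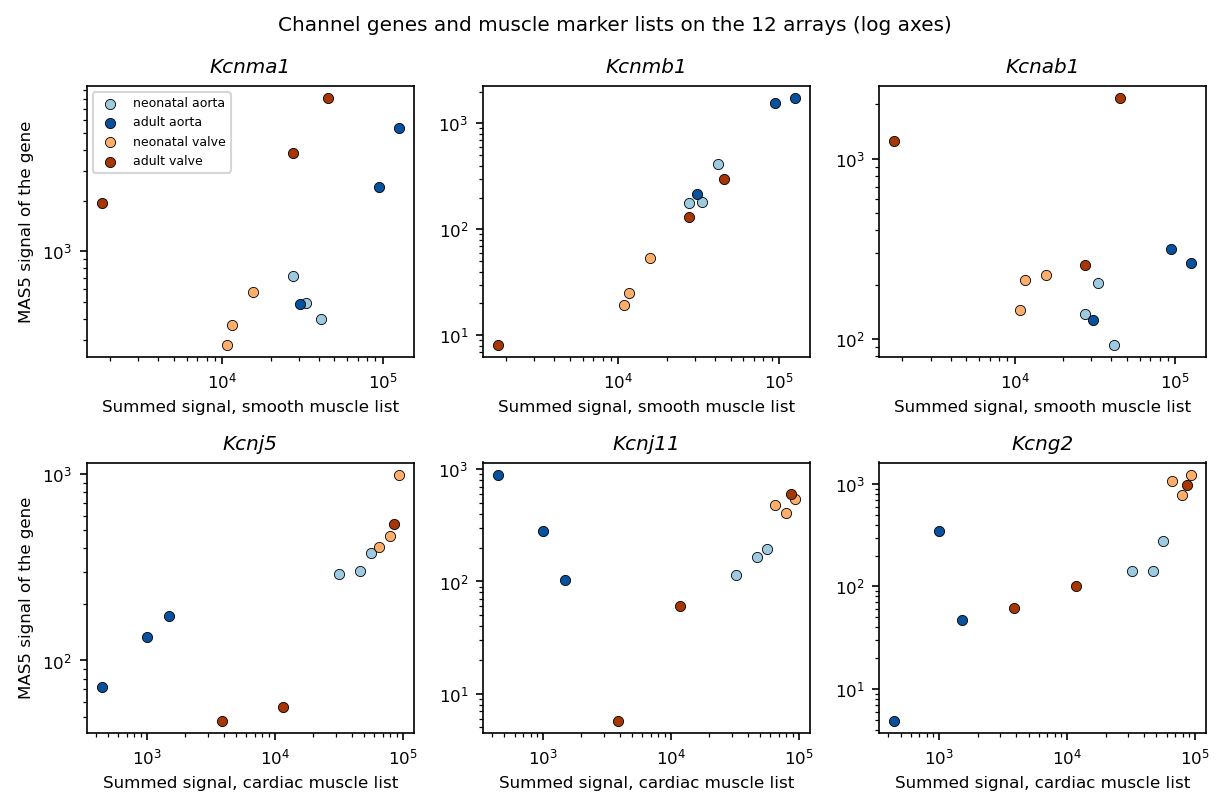
Signal of potassium channel genes against the summed signal of a marker list on the same array, both on log axes, with points coloured by group. Kcnma1, Kcnmb1 and Kcnab1 are plotted against smooth muscle markers and Kcnj5, Kcnj11 and Kcng2 against cardiac muscle markers, and adult valve 2 carries the highest cardiac sum, 86159, of its group.

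Inward rectifiers were tested for 4 of 14 genes. Kcnj15, best known from epithelium, read 625, 1064 and 649 in adult valve, 393, 169 and 575 in neonatal valve, 714, 75.8 and 37.4 in adult aorta and 71.9, 81.7 and 81.2 in neonatal aorta. Adult aorta 1 lay among the adult valve arrays. Adult valve was 2.58 ± 0.86 higher in log2 than adult aorta (adjusted p = 0.0357), and 3.83 higher without adult aorta 1 (adjusted p = 0.00045). The call was lost without neonatal aorta 1, adult aorta 2 or 3, or any adult valve array (1.70 to 2.72). Neonatal valve lay above neonatal aorta by 2.11 ± 0.86 and below adult valve by 1.17 ± 0.86, both without overlap, and neither passed (adjusted p = 0.082 and 0.42). The first passed without adult aorta 1 or 3, after centring and with array weights. An untested probe set of Kcnj15 had geometric means of 46.8 in adult aorta and 47.8 in adult valve. Kcnj3 and Kcnj5 together form the acetylcholine-gated channel of the atrium. Kcnj5 read 405, 993 and 464 in neonatal valve and 56.2, 540 and 47.3 in adult valve, where adult valve 2 stood above the other adult valve arrays. Over all arrays the age difference in valve was -2.34 ± 0.78 (adjusted p = 0.082), and without adult valve 2 it was -3.47 ± 0.46 and passed (adjusted p = 0.0036). Without adult valve 3 it was -1.71 (adjusted p = 0.23). In aorta Kcnj5 read 302, 290 and 377 in newborns and 72.0, 133 and 173 in adults, without overlap, a difference of -1.44 ± 0.78 that did not pass (adjusted p = 0.30). Kcnj3 read 42.6 to 372 and was called in no comparison, except for adult valve minus adult aorta without adult valve 2 (-1.82, adjusted p = 0.0425). It entered the test through the aorta arrays alone, so that pass was favoured by the filter.

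Kcnj11, the pore of the ATP-sensitive channel of heart and skeletal muscle, had 3 tested probe sets. The brightest of them read 892, 284 and 104 in adult aorta, 60.4, 601 and 5.70 in adult valve, 482, 547 and 409 in neonatal valve and 164, 115 and 197 in neonatal aorta. Adult aorta 1 and adult valve 2 stood above their groups. Neonatal valve lay above neonatal aorta without overlap, by 1.62 ± 1.30, which did not pass (adjusted p = 0.37). Of the other probe sets 1 gave 0.07, and the other lay lower in valve without overlap, by -1.18 ± 0.44 (adjusted p = 0.060), so the direction between newborn tissues is not settled. Adult valve minus adult aorta was -2.33 ± 1.30 by this probe set (adjusted p = 0.18), whereas the other probe sets gave -1.82 ± 0.66 (adjusted p = 0.0487) and -2.20 ± 0.44 (adjusted p = 0.0030). For the brightest this tissue difference passed without adult valve 2 (adjusted p = 0.0124), and was -0.64 without adult valve 3 (adjusted p = 0.64). Between the ages of valve the brightest gave -3.01 ± 1.30 (adjusted p = 0.17), with -4.68 without adult valve 2, which passed (adjusted p = 0.0210), and -1.32 without adult valve 3 (adjusted p = 0.45). Adult valve 3 reads in the range of absent RNA, and the other probe sets gave -1.24 and 0.08, neither passing, so the size of this age difference is not settled. Of the untested inward rectifiers Kcnj12, of striated muscle, read 253 on adult aorta 1 and 19.1 to 66.6 elsewhere.

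Tandem pore channels carry background potassium current. Kcnk6 read 392, 405 and 374 in neonatal aorta, 253, 217 and 293 in adult aorta, 319, 330 and 351 in neonatal valve and 386, 334 and 567 in adult valve. Adult valve lay above adult aorta without overlap and was 0.73 ± 0.23 higher in log2, or 1.66-fold (adjusted p = 0.0274), a call lost without adult aorta 2 or adult valve 3 (0.62 and 0.51). The second tested probe set of Kcnk6 read 184, 209 and 139 in adult aorta and 32.5, 86.9 and 81.0 in adult valve, and was lower in valve by -1.51 ± 0.41 (adjusted p = 0.0147). The probe sets of this gene therefore gave opposite calls, and its direction between adult tissues is not settled. Kcnk3, an acid-sensitive leak channel, read 70.4 to 905, and the stretch-sensitive Kcnk2 read 28.6 to 460. Neither was called in any comparison over all arrays, and the difference farthest from 0 was 1.30 ± 0.78 for Kcnk2 in neonatal valve against neonatal aorta (adjusted p = 0.23). Kcnk3 was lower in adult valve than in adult aorta by -1.17 ± 0.63 (adjusted p = 0.17), by -1.87 without adult aorta 1, which passed (adjusted p = 0.0202), and by -0.59 without adult valve 3 (adjusted p = 0.50). The untested Kcnk4 read 280 on adult aorta 1 and 4.23 to 58.1 elsewhere.

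**Figure D4:**
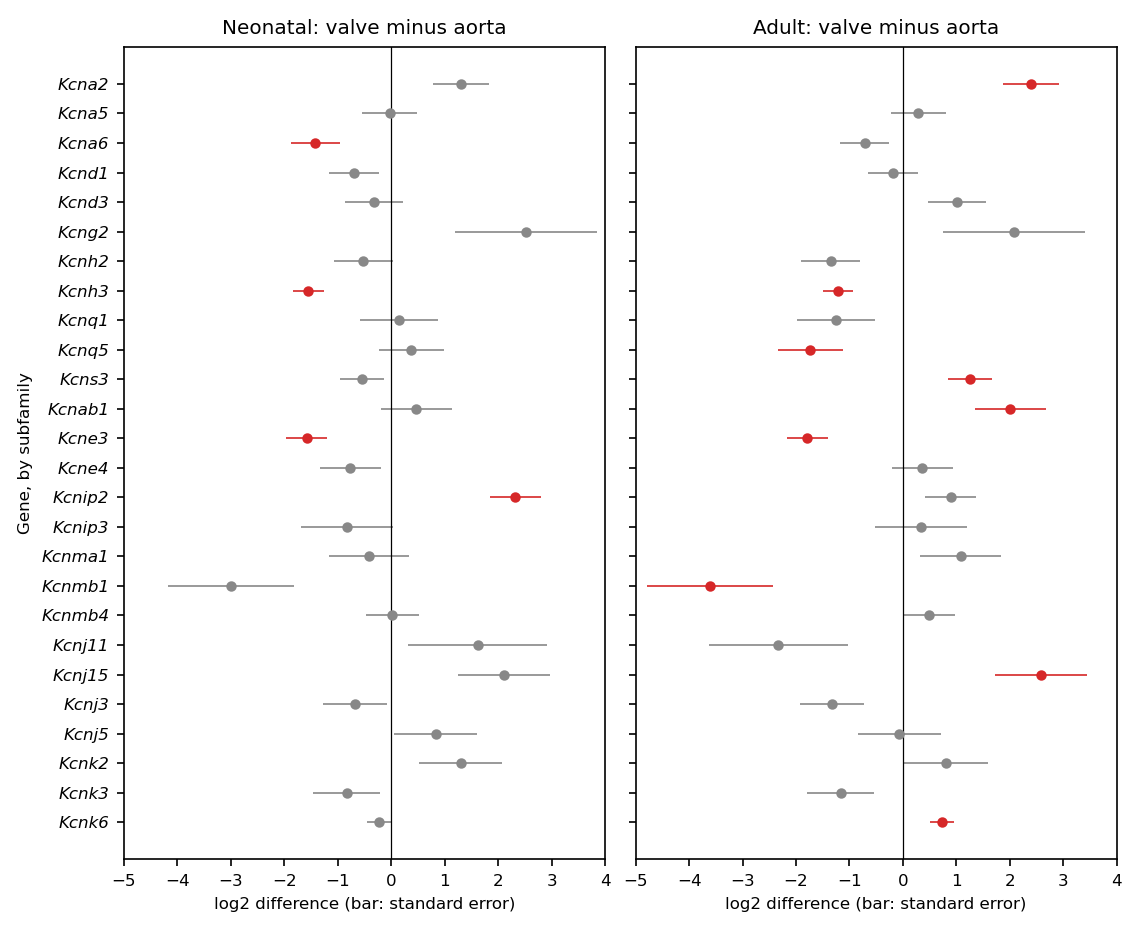
Log2 difference of valve minus aorta for the 26 tested genes in newborns and in adults, with standard errors as bars. Red marks called differences. Kcne3 and Kcnh3 lie below 0 at both ages (-1.58 and -1.79, -1.55 and -1.22).

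Among the 11 members known from heart muscle (Kcna5, Kcnd3, Kcng2, Kcnh2, Kcnip2, Kcnj3, Kcnj5, Kcnj11, Kcnk2, Kcnk3 and Kcnq1), a list drawn up with their values known, 7 were highest on adult valve 2 within the adult valve group. That array was highest for 10 of the 26 tested members, 38.5%, and for 31.6% of all probe sets tested. Neonatal aorta 3 was the highest array of its group for 17 of the 26, 65.4%, against 37.1% of all.

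**Figure D5:**
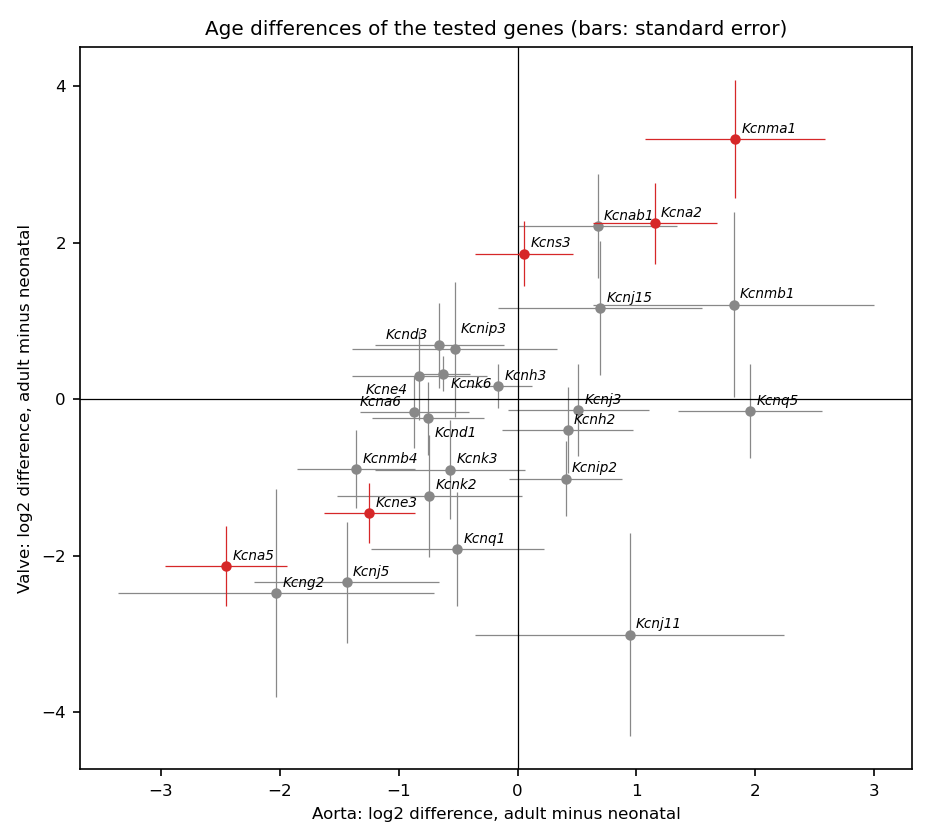
Log2 difference of adult minus neonatal for the 26 tested genes in aorta (horizontal) and in valve (vertical), with standard errors as bars. Red marks a call in either tissue. Kcna5 lies low on both axes (-2.45 and -2.13) and Kcnma1 high on both (1.83, not called, and 3.33).

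Genes that work beside potassium channels were read from a list of 32, of which 25 were on the array and 18 were tested. In aorta 0 changed with age at an adjusted p of 0.05 by limma (1 at an unadjusted p under 0.05), against 7.71% of all tested genes. Fxyd2, a regulator of the sodium-potassium pump, read 7.91, 36.2 and 51.3 in neonatal valve, all in the range of absent RNA, 108, 306 and 247 in adult valve and 316, 332 and 514 in neonatal aorta. It rose with age in valve (adjusted p = 0.0190) by an amount these readings do not fix. Of the 18 it alone was called there, 5.56% against 10.2% of all tested genes. In newborns 4 differed between the tissues, 22.2% against 27.2% of all tested genes. The pump subunit Atp1b1 (1.73 ± 0.50, adjusted p = 0.0213) and the potassium-chloride cotransporter Slc12a7 (1.46 ± 0.37, adjusted p = 0.0115) were higher in valve, and Atp1b3 (-1.12 ± 0.34, adjusted p = 0.0260) and Fxyd2 (adjusted p = 0.0014) were lower. In adults 3 did, 16.7% against 33%. Slc12a7 was higher in valve (1.11 ± 0.37, adjusted p = 0.0346), and Fxyd1 (-1.52 ± 0.47, adjusted p = 0.0256) and Abcc8, the sulfonylurea receptor that pairs with Kcnj11 (-1.68 ± 0.55, adjusted p = 0.0323), were lower. Of 36 sodium and calcium channel genes 12 were tested. With age 2 were lower in aorta, 16.7% against 7.71% of all tested genes, and 2 were lower in valve, 16.7% against 10.2%. In newborns 2 were higher and 1 lower in valve than in aorta, 25% against 27.2%, and in adults 1 was lower in valve, 8.33% against 33%.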

How the data were processed

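The deposited values are MAS5 signal intensities made by the authors with the Affymetrix Expression Console, per the submitters' processing notes. No version is given in the sources used here. The 2% trimmed mean was 500.1 to 500.2 on every array. Control probe sets (57) were left out. From these intensities log2 was taken with signals below 1 set to 1. Probe sets above 172 on at least 3 arrays were fitted with limma 3.58.1 in R 4.3.3, with 1 mean per group over all 12 arrays, an intensity trend and 8 residual degrees of freedom, and called at a Benjamini-Hochberg adjusted p under 0.05 (two-sided) over 18552 probe sets. The script was tested on simulated data. Precision is limited by 3 arrays per group. The members, the partner and marker lists and the heart list were chosen with earlier results of these data known. Named genes are those called in any comparison, those with at least 1 in log2 and no overlap of arrays, and the tested gene with the largest difference in each subfamily. The alternatives were another scaling, added constant, filter, probe set rule, array weights, blocks, and leaving out each array.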

Additional observations from a re-analysis of the deposited data

Results flagged for a closer look

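Kcnk6 was marked because the arrays of valve and aorta did not overlap at either age and lay in opposite directions, lower in valve in newborns and higher in adults. The valve minus aorta log2 differences were -0.23 and 0.73, and they differed by 0.96 ± 0.32, which did not pass limma's test (adjusted p = 0.29). The second tested probe set of the gene was lower in valve at both ages (-2.07 ± 0.41 and -1.51 ± 0.41).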

How the results depend on the processing

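Across the 31 named differences the alternatives gave 514 values with the same direction and side of the threshold, 82 that no longer passed, 17 that newly passed and 0 that reversed. Of the 19 called differences, quantile normalization kept 16, centring on the array median 15 and log2 of the signal plus 32 18. No filter kept 17 and array weights 17, and 6 were kept on leaving out each array in turn. The stricter filter, above the median on 6 arrays, kept all 13 it could give a value for. For aorta by age (1 gene called), quantile normalization gave 2, the added constant 2, array weights 6, and leaving out 1 array 0 to 3. For valve by age (5), the stricter filter gave 3 and leaving out 1 array 1 to 7, with 1 without neonatal valve 1, 2 or 3 or adult valve 1. For newborn valve against aorta (4), the stricter filter gave 2, array weights 8, and leaving out 1 array 3 to 6. For adult valve against aorta (9 of 26), no filter gave 15 of all 74 members. Leaving out 1 array gave 3 to 10, with 3 without adult valve 3 and 5 without adult aorta 3. The test of the difference between age differences stayed at 0 (0 to 0). The share of all probe sets called under each alternative is not given here, so these counts are not read as gains or losses. The control batch block, which is among the alternatives totalled above, leaves neonatal aorta 1 alone in its group, so its own counts are not given. Except where an alternative holds fewer arrays or probe sets, the cause was not tested.

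The replicate numbers do not pair the samples (3 of 18 correlations of deviations exceed 0.1, and 3 of 12 arrays correlate best with their own number). With the replicate block 1, 4, 4, 6 and 0 genes were called, and 15 of the 19 calls were kept. The share of all probe sets called with that block is likewise not given, so these counts are not read as gains or losses. Centring moved the median of all tested probe sets from -0.09 to 0.24 in newborn tissue and from -0.05 to 0.34 in adult tissue, both valve minus aorta. If the description entries were right and the titles wrong, adult aorta and neonatal valve would change places: each age comparison would become a tissue comparison and the reverse, and the test between age differences would stay the same. Readings in the range of absent RNA limit the size of the differences of Kcna2, Kcna5, Kcna6, Kcnd3, Kcne3, Kcng2, Kcnh2 and Kcnip3. The same holds for Kcnj3, Kcnj5, Kcnj11, Kcnj15, Kcnk2, Kcnmb1, Kcnq1, the second probe set of Kcnk6, Abcc8 and Fxyd2.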
